A study of Mus musculus with 12 samples.

Results

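Class I major histocompatibility complex (MHC) molecules, the peptide supply that fills them and the immunoproteasome that cuts those peptides were followed through 10 genes in B16-F10 tumors. The genes were picked by name, as one pathway, with earlier results of these data known: the classical heavy chains H2-K1 and H2-D1, the light chain B2m, the peptide transporter genes Tap1 and Tap2, the loading factor Tapbp, the immunoproteasome subunits Psmb8, Psmb9 and Psmb10, and the class I transactivator Nlrc5. All 10 were among the 23420 genes of the deposited table, and all 10 passed the filter on low counts that left 13095 genes for testing.

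B16-F10 is a melanoma line derived from C57BL/6 mice, and 12 of its subcutaneous tumors were sequenced, grown in male C57BL/6J mice for which the labels name no engineered allele. Obese mice were fed a Western diet with added cholesterol from an age of 4 to 5 weeks, for 15 weeks, and nonobese mice ate a matching control diet. The antibodies were clone 29F.1A12 against PD-1 and, as its isotype control, clone 2A3. Each dose was 10 mg/kg into the peritoneum, and dosing at 3 times a week started when a tumor could be felt. Diet and antibody together gave 4 groups (nonobese isotype and anti–PD-1, and the same pair in obese mice) of 3 tumors each, so every tumor came from the same cell line and every mouse had received an antibody. There was no group without antibody, and the tumors model a single melanoma. Levels are in CPM, a gene's counts relative to the library total after TMM scaling between libraries of 14022929 to 33871843 counts. The RNA came from whole tumor pieces, in which fewer cells of a type and less RNA per cell cannot be told apart.

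Classical class I molecules sit on nearly all nucleated cells and show peptides from inside the cell to CD8+ T cells. Proteins are cut by the proteasome, the TAP transporter carries the peptides into the endoplasmic reticulum, tapasin (encoded by Tapbp) bridges the transporter and the empty class I molecule, and a peptide-filled heavy chain with beta-2-microglobulin moves to the surface. Interferon gamma, which T and NK cells secrete, is known to induce the whole set with IRF1 among the factors involved, to bring in NLRC5 as the activator that binds class I promoters together with RFX, CREB and NF-Y factors, and to replace the catalytic proteasome subunits Psmb5, Psmb6 and Psmb7 by Psmb8, Psmb9 and Psmb10. B16-F10 cells are known for little class I at their surface in culture and for raising it under interferon gamma.

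The members lie in few places in the genome (GRCm38). Chromosome 17 holds 7 of the 10, in the mouse MHC: Tapbp (chr17:33915899-33929292, plus strand), H2-K1 (chr17:33996017-34000347, minus strand), Psmb9 (chr17:34181987-34187764, minus strand), Tap1 (chr17:34187553-34197225, plus strand), Psmb8 (chr17:34197721-34201454, plus strand), Tap2 (chr17:34203527-34216321, plus strand) and H2-D1 (chr17:35262730-35267499, plus strand). The remaining genes are B2m (chr2:122147686-122153083, plus strand), Nlrc5 (chr8:94434356-94527272, plus strand) and Psmb10 (chr8:105935735-105938444, minus strand). Psmb9 and Tap1 start head to head, and Psmb8 and Tap2 follow in the same block, so 4 of the members share a short stretch of the class II region.

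Promoter windows show what the members share in sequence beyond their order on the chromosome. RefSeq promoter windows of 300 bases (GRCm38.p6, 250 before to 50 after the start site) were matched for 8 of the 10 members, and 4 are shown because the heavy chains and B2m carried the letters that class I promoters are known for, while Tap1 stands for the transporter and immunoproteasome block. Capitals mark any match, on either strand, to GAAANNGAAA (the interferon-stimulated response element), the shorter AANNGAAA that it contains, CCAAT (the box NF-Y binds), GGGNNTTCC (kappa B) or the part TGACG of the CREB site. The windows are chr17:34000298-34000597 (minus strand) for H2-K1, chr17:35262844-35263143 (plus strand) for H2-D1, chr2:122147437-122147736 (plus strand) for B2m and chr17:34187306-34187605 (plus strand) for Tap1.
H2-K1: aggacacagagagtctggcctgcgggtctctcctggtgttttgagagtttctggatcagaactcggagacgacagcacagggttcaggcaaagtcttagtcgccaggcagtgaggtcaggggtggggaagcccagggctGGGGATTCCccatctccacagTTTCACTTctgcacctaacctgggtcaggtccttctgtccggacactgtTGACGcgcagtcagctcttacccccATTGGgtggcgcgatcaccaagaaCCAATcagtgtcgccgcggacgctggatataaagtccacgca
H2-D1: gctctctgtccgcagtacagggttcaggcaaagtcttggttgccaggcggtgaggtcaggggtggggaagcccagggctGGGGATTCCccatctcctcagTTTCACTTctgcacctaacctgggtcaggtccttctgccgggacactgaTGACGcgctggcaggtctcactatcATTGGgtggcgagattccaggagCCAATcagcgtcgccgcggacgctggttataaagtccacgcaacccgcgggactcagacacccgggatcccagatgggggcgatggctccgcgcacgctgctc
B2m: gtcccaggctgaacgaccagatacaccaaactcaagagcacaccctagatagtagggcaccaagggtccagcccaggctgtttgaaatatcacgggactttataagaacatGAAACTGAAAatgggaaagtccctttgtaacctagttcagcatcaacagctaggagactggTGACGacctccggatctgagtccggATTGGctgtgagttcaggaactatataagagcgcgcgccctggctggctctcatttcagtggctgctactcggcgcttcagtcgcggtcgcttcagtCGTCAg
Tap1: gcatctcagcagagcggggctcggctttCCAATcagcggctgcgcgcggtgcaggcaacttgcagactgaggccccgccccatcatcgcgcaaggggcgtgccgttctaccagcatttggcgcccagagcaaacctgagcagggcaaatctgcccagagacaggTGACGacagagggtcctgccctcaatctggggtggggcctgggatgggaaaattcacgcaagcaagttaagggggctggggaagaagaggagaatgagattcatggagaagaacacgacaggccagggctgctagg

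The H2-K1 and H2-D1 windows were 89.5% identical over 239 aligned bases, and both held kappa B, the shorter AANNGAAA, TGACG and a pair of CCAAT boxes in the same order. B2m was the only window of the 8 with GAAANNGAAA, at −139 from its start, and also had a CCAAT box and TGACG. The Tap1 and Psmb9 windows overlapped by 275 bases (chr17:34187306-34187580), so their CCAAT box and TGACG are the same bases read from opposite strands. Among all 32851 windows in the table, GAAANNGAAA was found in 3.44%, AANNGAAA in 23.9%, CCAAT in 37.4%, TGACG in 20.8% and GGGNNTTCC in 5.82%. CCAAT was present in 6 of the 8 members and TGACG in 5 of the 8, the Psmb9 and Tap1 matches being shared. AANNGAAA was added after the sequences had been seen. A match describes letters only, and a window without a match says nothing about a factor.

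Levels were first compared within each group, as CPM per kilobase of the principal transcript, the only scale on which different genes can be ranked. B2m, the light chain, was the most abundant member in all groups, with means of 421 and 325 CPM per kb under isotype and anti–PD-1 in nonobese mice and of 437 and 814 CPM per kb in obese mice. H2-K1 came next, at 98.1, 96.3, 85.4 and 208 CPM per kb in the same order of groups, and the ranges of B2m and H2-K1 overlapped in no group. H2-D1 followed at 39.9, 34.04, 36.9 and 73.0 CPM per kb. By their means, messages for heavy and light chains stood above those for peptide supply in all 4 groups, although H2-D1 overlapped its lower neighbor Tapbp in the nonobese isotype and obese isotype groups and Psmb10 in the obese anti–PD-1 group.

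Tapbp and Psmb10 shared the next place, with overlapping ranges in all 4 groups. They were at 33.2 and 32.5 CPM per kb in the nonobese isotype group and at 51.8 and 57.1 CPM per kb in the obese anti–PD-1 group. Tap1, Psmb8, Tap2 and Psmb9 were lower, from 11.9 down to 4.94 CPM per kb in the nonobese isotype group and from 7.69 down to 2.66 in the obese isotype group. Their order was not fixed: Tap2 was ahead of Psmb9 in the first 3 groups, whereas Psmb9 (16.3 CPM per kb) was ahead of Tap2 (12.5) in the obese anti–PD-1 group, with overlapping ranges there. Nlrc5, the transactivator, was the rarest member in all groups, with means from 0.934 to 3.76 CPM per kb.

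**Figure D1:**
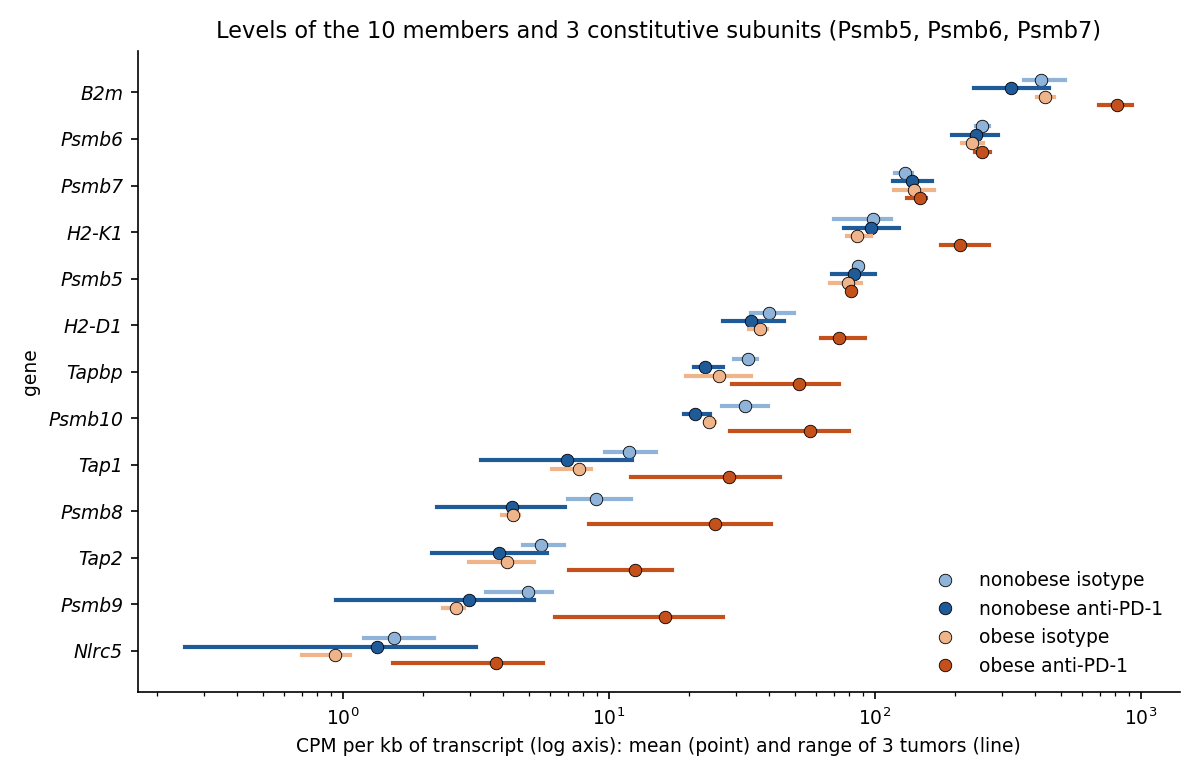
Mean level (points) and range over 3 tumors (lines) of the 10 members and the constitutive subunits Psmb5, Psmb6 and Psmb7, in CPM per kb of transcript on a log axis, by group. B2m lies highest and Nlrc5 lowest in each group, and for the members the obese anti–PD-1 points lie to the right of the other groups.

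Within obese mice, anti–PD-1 was compared with isotype to ask whether the class I set moved with treatment in that diet. All 10 members were higher with anti–PD-1, by 1.86-fold (B2m) to 6.11-fold (Psmb9), and 7 of them rose by the study's thresholds, more than 2-fold with a P below 0.05 before adjustment. Over all genes tested, 2.24% rose by that rule. The median log2 fold change of the members was 1.44, against −0.01 over all genes. Psmb9, Psmb8 and Nlrc5 had the largest differences, and B2m, H2-D1 and Tapbp the smallest.

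H2-K1, a heavy chain, was at 289, 435 and 288 CPM in obese anti–PD-1 tumors 1, 2 and 3, and at 156, 132 and 127 CPM in obese isotype tumors 1, 2 and 3. No tumor of either group reached the range of the other. H2-K1 rose by 1.29 on the log2 scale (SE 0.22; FDR 0.143 by edgeR), a 2.44-fold difference.

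H2-D1, the other heavy chain, was at 131, 193 and 135 CPM with anti–PD-1 and at 79.4, 82.5 and 70.8 CPM with isotype. Every anti–PD-1 tumor was above every isotype tumor, and the 1.98-fold difference (log2 0.99, SE 0.21, FDR 0.192 by edgeR) stopped just short of the fold threshold. B2m, which pairs with both heavy chains, was at 599, 798 and 702 CPM with anti–PD-1 and at 349, 404 and 375 CPM with isotype. Its groups were also apart, with a log2 difference of 0.90 (SE 0.21, FDR 0.206 by edgeR), below 2-fold.

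Tap1, which encodes a subunit of the peptide transporter, was at 35.8, 130.1 and 85.2 CPM in the anti–PD-1 tumors and at 24.9, 17.98 and 25.3 CPM in the isotype tumors. The groups did not overlap, but tumor 1 with anti–PD-1 lay much nearer to the isotype tumors than tumors 2 and 3 did. Tap1 rose by 1.88 on the log2 scale (SE 0.45, FDR 0.220 by edgeR). Tap2, the partner subunit, showed the same arrangement at 24.3, 59.5 and 45.4 CPM against 18.05, 10.3 and 14.2 CPM, and rose by 1.60 (SE 0.36, FDR 0.206). Tapbp was at 83.8, 211 and 155 CPM against 98.8, 56.7 and 70.2 CPM. It is the only member whose groups overlapped, since isotype tumor 1 was above anti–PD-1 tumor 1, and its log2 difference of 1.00 (SE 0.27, FDR 0.282) fell marginally below the fold threshold before rounding.

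Psmb8, the immunoproteasome subunit that takes the place of Psmb5, was at 13.7, 66.4 and 41.7 CPM with anti–PD-1 and at 7.36, 6.43 and 7.45 CPM with isotype. The isotype tumors were nearly equal and the anti–PD-1 tumors spread 4.83-fold, all of them higher. Psmb8 rose by 2.52 on the log2 scale (SE 0.48, FDR 0.192 by edgeR). Psmb9, which takes the place of Psmb6, was at 8.46, 36.3 and 21.3 CPM against 3.70, 3.22 and 3.87 CPM, and rose by 2.61 (SE 0.54, FDR 0.192). Psmb10, which takes the place of Psmb7, was at 37.3, 105 and 82.1 CPM against 32.7, 31.1 and 30.0 CPM. Tumor 1 with anti–PD-1 was barely above the isotype tumors for Psmb10, whose rise was 1.26 (SE 0.28, FDR 0.202). Nlrc5 was at 11.7, 42.8 and 31.0 CPM against 8.08, 5.32 and 7.83 CPM, and rose by 2.01 with the largest error of the 10 (SE 0.69, FDR 0.473).

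In the obese mice, all 10 members had an unadjusted P below 0.05 and a higher level, as did 4.3% of all genes, and the groups were apart in 9 of 10, as they were upward in 5.45% of all genes. None of the 10 had an FDR below 0.05 by edgeR, and 0 of all 13095 genes tested did. DESeq2, run as an alternative, put 8 of 10 below that FDR, where it put 0.695% of all genes. Obese anti–PD-1 tumor 1 was the lowest of its group for 9 of the 10 members. Without it, 10 members rose by the thresholds, 7 of them with an edgeR FDR below 0.05. Over all genes in that fit, 555 of 13355 rose by the thresholds and 76 had an FDR below 0.05 in either direction. Tumor 2 was the highest for all 10. Without it, 5 members rose and 0 were below that FDR, where 194 of 13316 genes rose and 0 were below it.

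**Figure D2:**
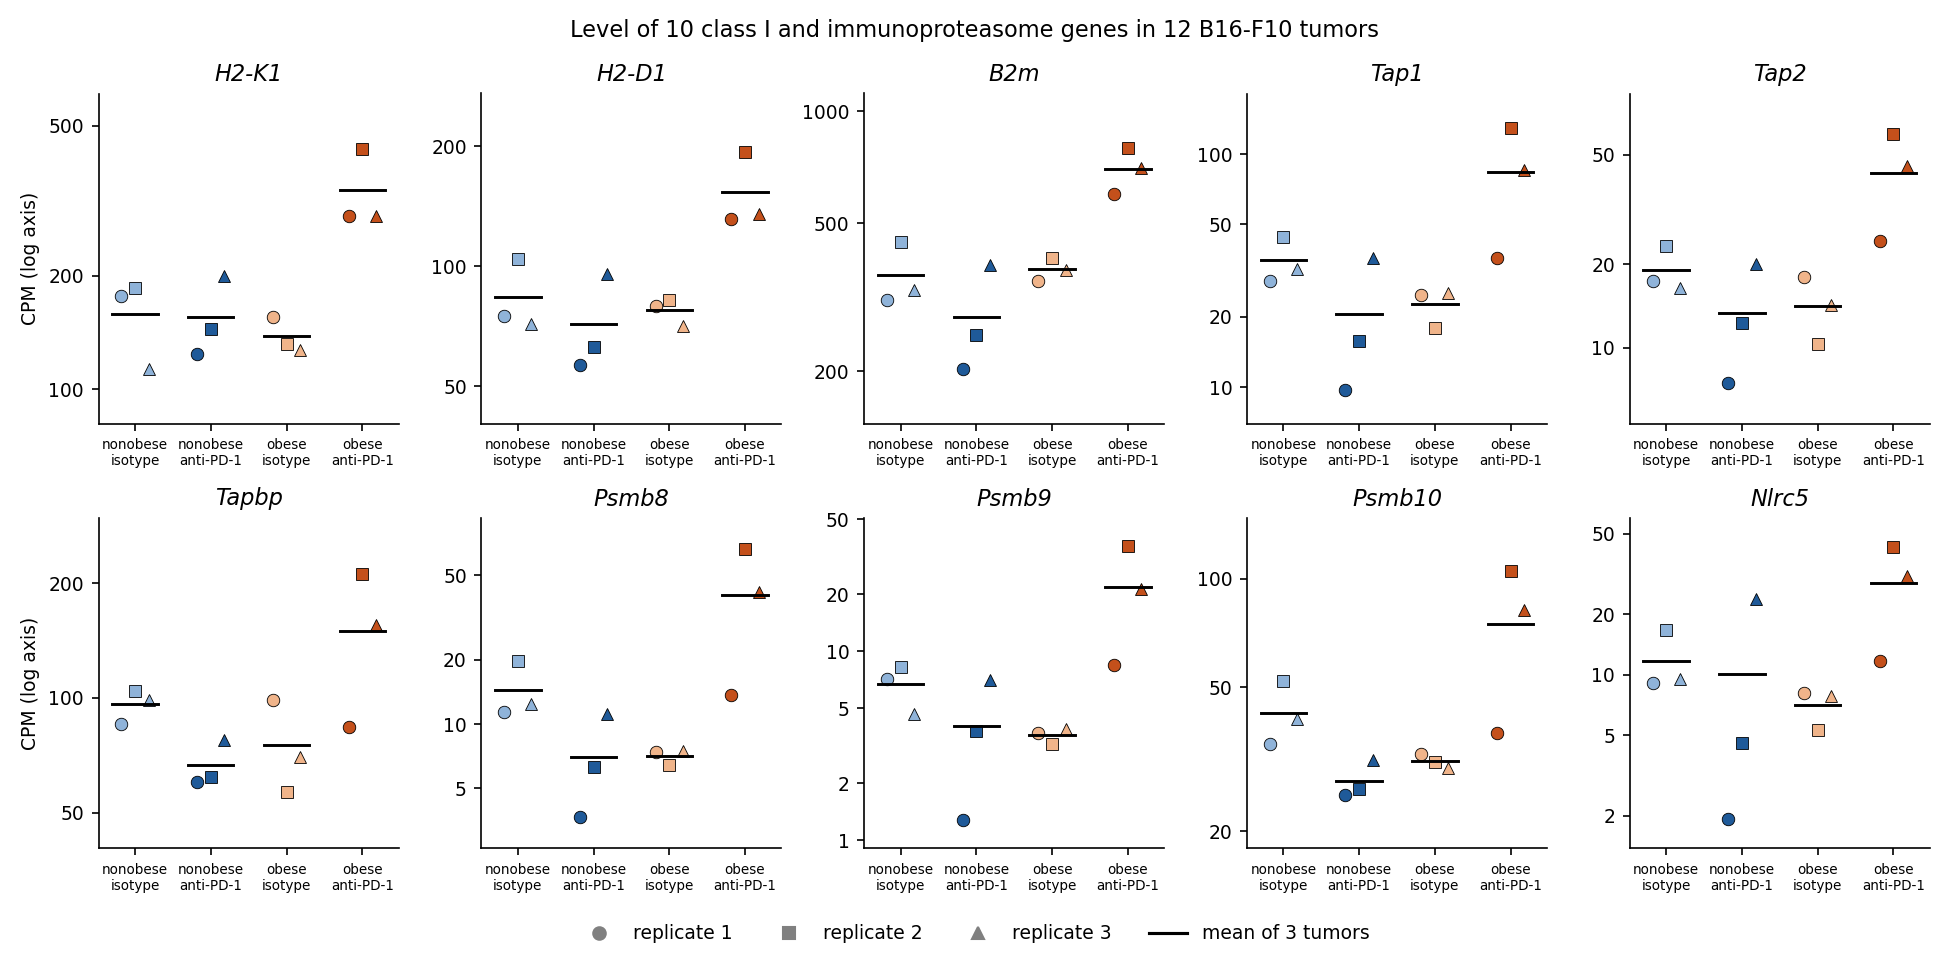
CPM of each member (log axes that differ between panels) in the 12 tumors by group, with the replicate number as the symbol and the mean of 3 tumors as a line. Obese anti–PD-1 tumors 2 and 3 stand above all other groups for each gene, and tumor 1 is the lowest of its group for all members but H2-K1.

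Within nonobese mice, the same treatment was compared to ask whether the set moved without obesity. All 10 members had negative log2 fold changes, from −0.03 (H2-K1) to −1.04 (Psmb8), with a median of −0.53 against 0.02 over all genes. Of the 10, 1 fell by the thresholds, Psmb8, where 2.31% of all genes fell. Psmb8 was at 3.66, 6.31 and 11.1 CPM in nonobese anti–PD-1 tumors 1, 2 and 3 and at 11.4, 19.8 and 12.4 CPM in nonobese isotype tumors 1, 2 and 3. The highest anti–PD-1 tumor was just below the lowest isotype tumor (SE of the log2 fold change 0.47, FDR 0.924 by edgeR).

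H2-K1 was at 124, 144 and 199 CPM with anti–PD-1 and at 177, 186 and 114 CPM with isotype in nonobese mice, with each group reaching into the other. For H2-D1, the values were 56.5, 62.6 and 95.5 CPM against 75.2, 104 and 71.7 CPM, also overlapping. B2m had 202, 249.9 and 386 CPM against 311, 444 and 332 CPM. In the chains, only anti–PD-1 tumor 3 was inside or above the isotype range for all 3 genes, and the log2 differences of H2-D1 (−0.23, SE 0.21) and B2m (−0.38, SE 0.21) did not pass the test.

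Peptide supply showed the same spread in nonobese mice. Tap1 was at 9.76, 15.8 and 36.0 CPM against 28.6, 44.3 and 32.1 CPM, and Tap2 at 7.42, 12.3 and 20.2 CPM against 17.4, 23.4 and 16.4 CPM. Their log2 differences, −0.77 (SE 0.44) and −0.52 (SE 0.35), were within the spread. Tapbp, at 60.4, 62.1 and 77.5 CPM against 85.6, 104 and 98.8 CPM, did not overlap between groups, although its difference of −0.53 (SE 0.27) did not pass. Psmb10 was likewise apart, at 25.2, 26.1 and 31.4 CPM against 34.9, 52.0 and 40.8 CPM (log2 −0.63, SE 0.27). Psmb9 had 1.27, 3.80 and 7.05 CPM against 7.10, 8.29 and 4.66 CPM. The widest range within any group was that of Nlrc5 with anti–PD-1, at 1.93, 4.58 and 23.9 CPM, 12.4-fold from lowest to highest, against 9.06, 16.7 and 9.49 CPM with isotype.

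Psmb8 and Psmb10 were the 2 members with an unadjusted P below 0.05, a downward rule met by 3.59% of all genes, and 3 members (Tapbp, Psmb8 and Psmb10) did not overlap, as was so for 5.37%. By either edgeR or DESeq2, 0 of 10 had an FDR below 0.05. Of all 13095 genes, 0 did by edgeR and 9 by DESeq2, in either direction. Under DESeq2 and the robust prior the log2 fold change of Psmb8 was −1.05 and −1.04, but P rose above 0.05 and the call was lost. The call was also lost when any 1 of 8 of the 12 tumors was left out: nonobese isotype 2 and 3, nonobese anti–PD-1 1 and 2, obese isotype 1, 2 and 3 and obese anti–PD-1 3. Its log2 fold change stayed negative with each of the 12 tumors left out, from −1.54 to −0.75. For the 4 obese tumors, which enter this comparison only through the shared estimate of spread, it stayed at −1.04 while P rose above 0.05. In the other direction, leaving out nonobese anti–PD-1 tumor 3 gave 4 members that fell (Tap1, Psmb8, Psmb9 and Nlrc5). In that fit, 476 of 13280 genes fell.

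Diet was compared first under isotype, to see whether the set differed without PD-1 blockade. The log2 difference was below 0 for 9 of 10 members and 0.05 (SE 0.21) for B2m, with a median of −0.43 against 0.01 over all genes. Psmb8 alone was called lower (−1.03, SE 0.47, FDR 0.374 by edgeR), where 1.12% of all genes were, and it was also the only member with an unadjusted P below 0.05 (6.17% of all genes in that direction). Its obese tumors, at 6.43 to 7.45 CPM, were all below its nonobese tumors, at 11.4 to 19.8 CPM. The same was true of Tap1, Psmb9, Psmb10 and Nlrc5, so that 5 members did not overlap, where 9.02% of all genes did not in that direction. Some markers of other cells were also called lower in obese mice here. They were 2 of 7 for macrophages, 2 of 5 for adipocytes, 1 of 6 for fibroblasts and 1 of 9 for T and NK cells. For B cells, dendritic cells, endothelium and melanoma, 0 were called lower. The 4 skeletal muscle markers had a median log2 difference of −2.07, and 0 were called by the edgeR rule on fold and unadjusted P. The part of these cells in the members' levels was not tested.

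The heavy chains overlapped between diets under isotype, with log2 differences of −0.20 (SE 0.22) for H2-K1 and −0.11 (SE 0.21) for H2-D1. Tap1 differed by −0.62 (SE 0.45), Psmb9 by −0.90 (SE 0.53) and Nlrc5 by −0.73 (SE 0.68), none of which passed. No member had an FDR below 0.05 with edgeR or DESeq2. Of all 13095 genes, edgeR put 0 and DESeq2 put 200 below that FDR, in either direction. Without nonobese isotype tumor 2, the highest of its group for all 10 members, the Psmb8 difference was −0.75, and it was not called without that tumor or without any of 6 others left out in turn. It was also not called under DESeq2 (−1.05), the current glmQLFit (−1.04) or the robust prior (−1.03), where P rose above 0.05, or with the replicate block (−0.95), where the fold fell below 2.

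Diet was then compared under anti–PD-1. All 10 members were called higher in obese than in nonobese mice, against 3.69% of all genes, with fold changes from 2.15 (H2-D1) to 5.77 (Psmb8) and a median log2 fold change of 1.47 against −0.01. The call of Nlrc5 was lost under DESeq2, with the robust prior and with only the groups compared. All 10 had an unadjusted P below 0.05 (5.71% of all genes), and 8 did not overlap (6.54%). Tap1 and Nlrc5 were the overlapping genes: nonobese tumor 3, at 36.0 and 23.9 CPM, was above obese tumor 1, at 35.8 and 11.7 CPM. This contrast shares its obese tumors with the treatment contrast in obese mice and its nonobese tumors with that in nonobese mice, so the 3 are not separate evidence.

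By edgeR, 4 of 10 had an FDR below 0.05, compared with 0.359% of all genes. They were B2m (log2 1.32, SE 0.21, FDR 0.0260), H2-D1 (1.10, SE 0.21, FDR 0.0435), Psmb8 (2.53, SE 0.48, FDR 0.0435) and Psmb10 (1.44, SE 0.28, FDR 0.0435). H2-K1 (1.11, SE 0.22) was at the edge, with an edgeR FDR of 0.050. The light chain had a smaller difference than the transporter genes or Psmb9, but the lowest FDR of the 10, with an SE of 0.21. Tap2 (1.70, SE 0.36), Psmb9 (2.44, SE 0.53), Tap1 (2.03, SE 0.45) and Tapbp (1.17, SE 0.27) had edgeR FDR values of 0.0663, 0.0758, 0.0884 and 0.0952. Nlrc5 (1.5, SE 0.67) had an edgeR FDR of 0.461. DESeq2 put 9 of 10 below an FDR of 0.05, all but Nlrc5, against 1.76% of all genes. In a model of only the 6 tumors compared, edgeR put 0 of 10 members and 0 of 12729 genes below that FDR. With a tumor left out, the number of members ran from 0 to 9. It was 0 without obese anti–PD-1 tumor 2 or 3 or nonobese anti–PD-1 tumor 1 or 2. It was also 0 without nonobese isotype tumor 3 or obese isotype tumor 1 or 3. In these fits 2 to 14 of all genes were below it, in either direction. The number was 9 without obese anti–PD-1 tumor 1 or nonobese anti–PD-1 tumor 3, where 214 and 93 of all genes were below it. It was 1 without nonobese isotype tumor 2 or obese isotype tumor 2, where 16 and 21 of all genes were. Calls by fold and P fell to 6 of 10 without obese anti–PD-1 tumor 2, where 337 of 13316 genes were called higher.

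The difference between the treatment responses was tested directly, as an interaction in the same model. Its log2 value was above 0 for all 10 members, from 1.21 (H2-D1) to 3.56 (Psmb8), and all 10 passed the fold and P thresholds, compared with 4.93% of all genes. The call of Nlrc5 was lost under DESeq2 (log2 2.24) and with the robust prior (2.23), where P rose above 0.05. By edgeR without that prior, an unadjusted P below 0.05 upward was found for all 10 and for 7.01% of all genes. The chains had the smallest values, with 1.31 (SE 0.31) for H2-K1, 1.21 (SE 0.29) for H2-D1 and 1.27 (SE 0.29) for B2m. Tapbp stood close to them at 1.53 (SE 0.38). Psmb10 (1.89, SE 0.39), Tap2 (2.12, SE 0.50), Nlrc5 (2.23, SE 0.95) and Tap1 (2.65, SE 0.63) were in between. Psmb9 (3.34, SE 0.74) and Psmb8 (3.56, SE 0.67) had the largest values. The members were not tested against each other, so their order is a description. The median was 2.01, against −0.04 over all genes.

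The lowest FDR of the difference was 0.106 by edgeR, for Psmb8, so that 0 of 10 were below 0.05. Of all 13095 genes tested, 0 were below 0.05 as well. DESeq2 put 9 of 10 below it, where it put 1.89% of all genes, and the exception was again Nlrc5. With obese anti–PD-1 tumor 1 or nonobese anti–PD-1 tumor 3 left out, edgeR put 7 of 10 below that FDR. Without nonobese isotype tumor 1 it put 2, and the other 9 tumors left out in turn gave 0. Of all genes, 197, 37 and 111 were below it in these fits in the order named, and 0 without any of the other 9 tumors.

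**Figure D3:**
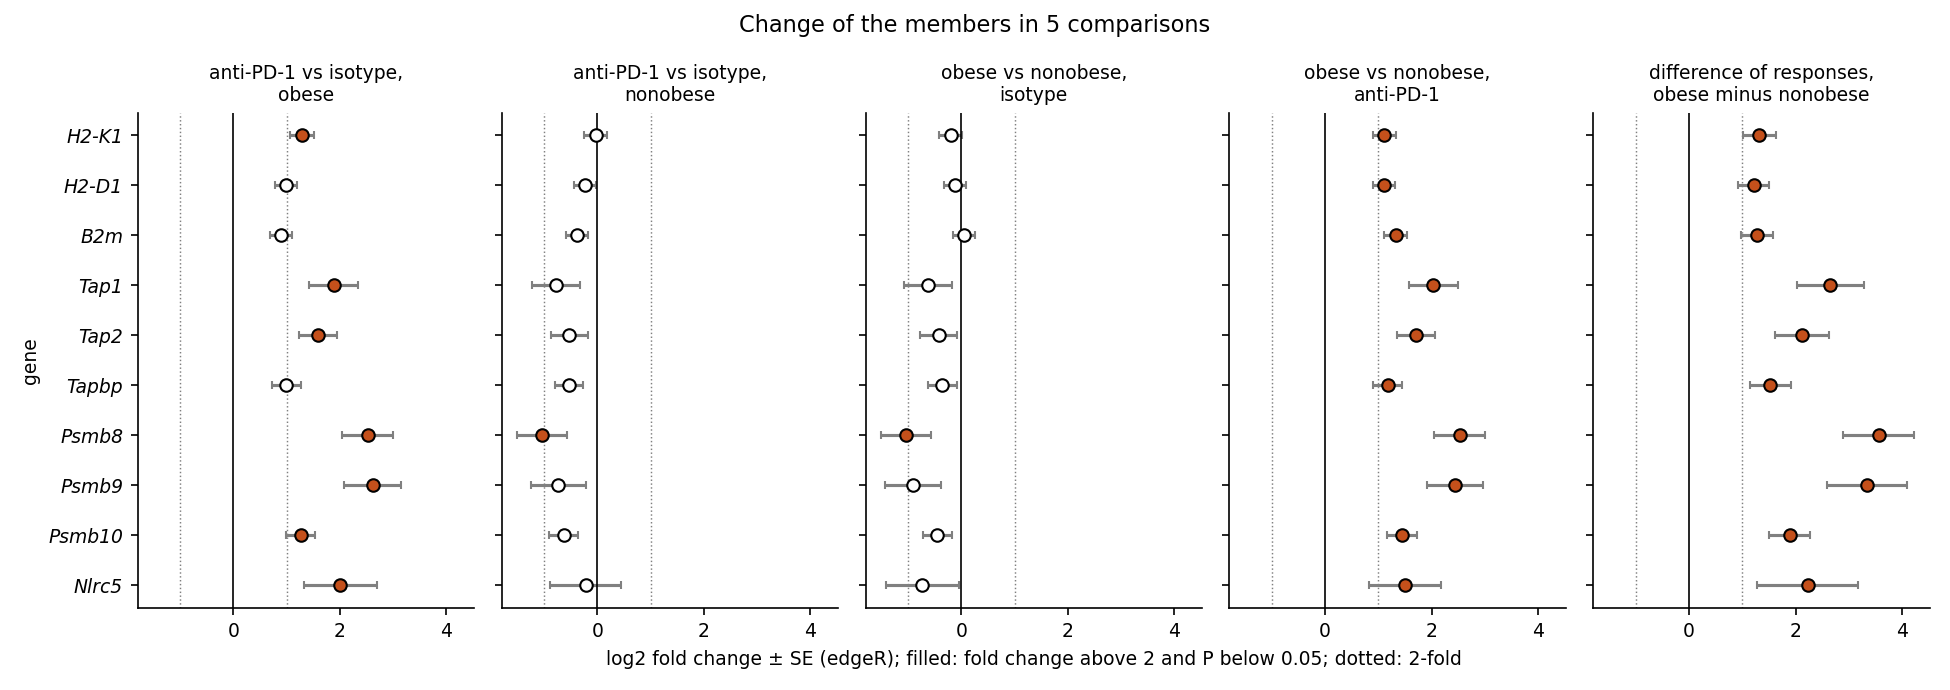
Log2 fold change with its SE by edgeR (horizontal axes, shared) of each member in 5 comparisons, with filled points where the fold change is above 2 and the unadjusted P below 0.05. All points are to the right of 0 in obese mice given anti–PD-1 and to the left in nonobese mice, and 10 points are filled in each of the panels for diet under anti–PD-1 and for the difference between the responses.

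The immunoproteasome works by replacement, so each subunit was also set against the constitutive subunit whose place it takes, within the same tumor. The ratio was computed from log2 CPM with a prior count of 2, and library scaling enters it only through that prior count. Psmb5, Psmb6 and Psmb7 themselves differed little: their log2 fold changes for anti–PD-1 in obese mice were 0.04 (SE 0.13), 0.12 (SE 0.13) and 0.08 (SE 0.15). Of 14 constitutive proteasome genes, 0 were called in any of the 5 comparisons, and for treatment in obese mice their median was 0.08 on the log2 scale.

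The log2 ratio of Psmb8 to Psmb5 was −2.40, −0.17 and −0.78 in obese anti–PD-1 tumors 1, 2 and 3 and −3.29, −3.61 and −3.02 in obese isotype tumors 1, 2 and 3. The groups were apart by 2.19 on average (two-sided exact permutation p = 0.1, the smallest that 3 against 3 tumors allow). Per kb of transcript, Psmb8 reached 10.4%, 49.1% and 32.2% of the Psmb5 level in those anti–PD-1 tumors, and between 4.46% and 6.75% in the isotype tumors. The message of the immune subunit thus stayed below that of its counterpart in each tumor.

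Psmb9 was furthest below its counterpart. Its log2 ratio to Psmb6 was −4.47, −2.45 and −3.34 in obese anti–PD-1 tumors and −5.60, −5.94 and −5.42 in obese isotype tumors, apart by 2.24 (exact permutation p = 0.1). For Psmb10 and Psmb7 the ratios were −2.25, −0.78 and −0.90 against −2.06, −2.63 and −2.38. Here anti–PD-1 tumor 1 was inside the isotype range, and the mean difference was 1.05 (exact permutation p = 0.2).

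In nonobese mice, the mean log2 ratios with anti–PD-1 minus those with isotype were −1.06 (Psmb8 to Psmb5), −0.88 (Psmb9 to Psmb6) and −0.70 (Psmb10 to Psmb7), with exact permutation p values of 0.3, 0.6 and 0.2. Under isotype, the obese minus nonobese differences were −0.85, −0.72 and −0.52 in the same order (exact permutation p = 0.1, 0.1 and 0.2). Under anti–PD-1 they were 2.40, 2.39 and 1.22 (exact permutation p = 0.1, 0.2 and 0.2). These 12 ratio comparisons cannot pass 0.05 with 3 tumors per group, before or after adjustment.

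**Figure D4:**
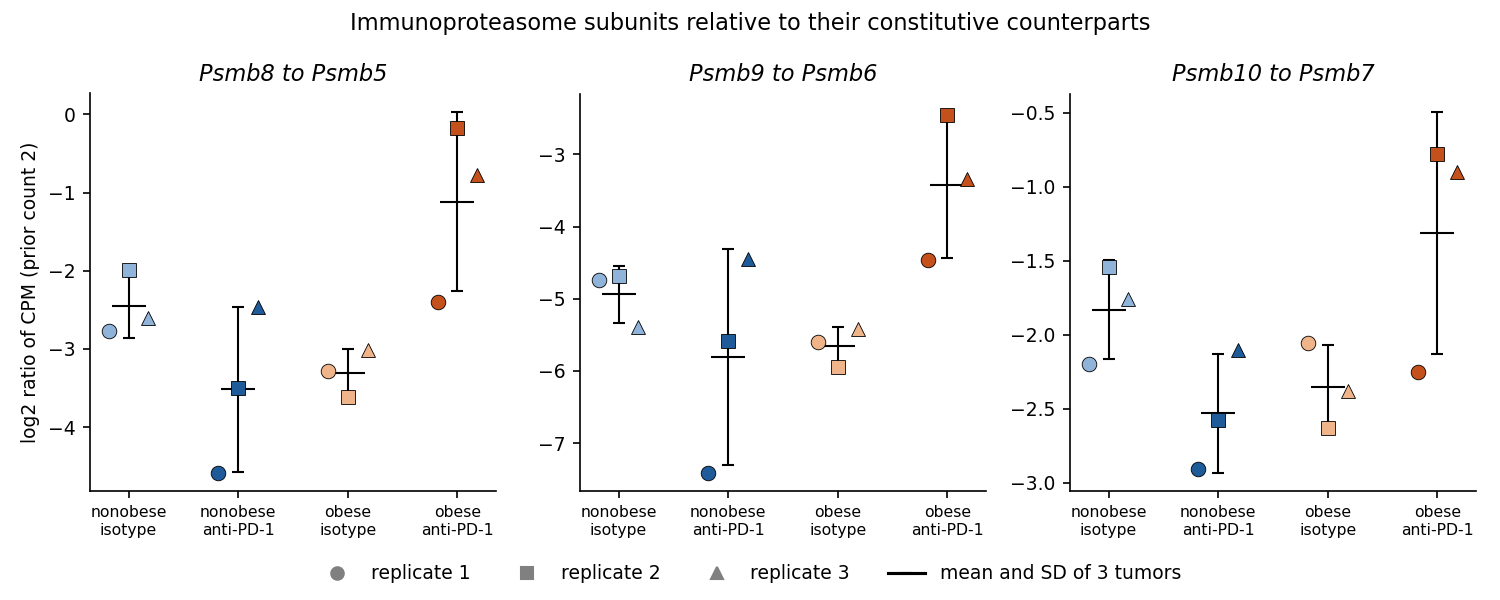
Log2 ratio of each immunoproteasome subunit to its constitutive counterpart (vertical axes, which differ between panels) in the 12 tumors by group, with mean and SD of 3 tumors. Psmb8 to Psmb5 and Psmb9 to Psmb6 separate the obese anti–PD-1 tumors from the obese isotype tumors, whereas for Psmb10 to Psmb7 tumor 1 with anti–PD-1 lies among the isotype tumors.

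Other genes of the class I route were given by lists. The loading and trimming partners (14 genes such as chaperones of the endoplasmic reticulum and peptide-trimming enzymes) were centred on −0.11 (median log2 value) for treatment in obese mice, and 0 of 14 were called. Erap1, an aminopeptidase that trims peptides to class I length, was the only called gene of this list in any comparison, by its difference between the responses of 1.12 (SE 0.39, FDR 0.260 by edgeR). It was at 26.4, 63.6 and 39.7 CPM in obese anti–PD-1 tumors and at 21.3, 18.2 and 29.3 CPM in obese isotype tumors, with tumor 1 inside the isotype range.

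The proteasome activator subunits Psme1 and Psme2, which form a cap that opens the proteasome and are known interferon gamma targets, were nearer to the members. Psme2 was at 74.5, 142 and 119 CPM in obese anti–PD-1 tumors and at 59.8, 66.6 and 58.8 CPM in obese isotype tumors, without overlap (log2 0.86, SE 0.18, FDR 0.192 by edgeR, below 2-fold). In the diet comparison under anti–PD-1 it rose by 1.04 (SE 0.18, FDR 0.0305 by edgeR), and its response differed by 1.20 (SE 0.25, FDR 0.118 by edgeR). Psme1 had a log2 fold change of 0.70 (SE 0.15) in obese mice and of 0.75 (SE 0.14, FDR 0.0469 by edgeR) for diet under anti–PD-1. Of the 4 activator genes, 1 was called higher in that comparison, Psme2, and 0 in obese mice for treatment.

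Among 15 regulators of class I genes, 1 was called higher for treatment in obese mice and 1 for diet under anti–PD-1, both times Irf1, and the list's median for treatment in obese mice was −0.10 on the log2 scale. Irf1, a transcription factor induced by interferons, was at 22.6, 93.3 and 59.4 CPM in obese anti–PD-1 tumors and at 30.1, 26.9 and 30.8 CPM in obese isotype tumors. Tumor 1 was the lowest of these 6, so the rise of 1.00 (SE 0.40, FDR 0.561 by edgeR) came with overlapping groups. For diet under anti–PD-1, Irf1 rose by 1.41 (SE 0.40, FDR 0.176 by edgeR), again with overlapping groups, and its response differed by 1.18 (SE 0.56, FDR 0.399 by edgeR), which was not called. Rfx5, a subunit of the RFX complex that NLRC5 works with, had a log2 fold change of −0.18 (SE 0.14) in obese mice.

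Within the anti–PD-1 groups, tumors ranked alike across the members. In the nonobese anti–PD-1 group, all 10 members ran from tumor 3 (highest) through tumor 2 to tumor 1, and in the obese anti–PD-1 group 9 of 10 ran from tumor 2 through tumor 3 to tumor 1, H2-K1 being the exception. The mean of the members, each centred on its own mean log2 CPM over the 12 tumors, was 0.29, 1.67 and 1.17 in obese anti–PD-1 tumors 1, 2 and 3. It was −1.27, −0.71 and 0.12 in nonobese anti–PD-1 tumors 1, 2 and 3. Isotype tumors lay between −0.18 and 0.36 in nonobese mice and between −0.61 and −0.30 in obese mice. Tumor 2 of the obese anti–PD-1 group was the highest of the 12 tumors for all 10 members, and tumor 1 of the nonobese anti–PD-1 group was the lowest for 8.

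Markers of T and NK cells followed this order in both anti–PD-1 groups but not in the obese isotype group. The summed CPM of 10 markers was 5.71, 25.8 and 16.9 in obese anti–PD-1 tumors 1, 2 and 3, and 0.508, 1.52 and 2.72 in nonobese anti–PD-1 tumors 1, 2 and 3. Both sums ranked as most or all of the members did. The nonobese sums rest on few counts, since the floor of 3 counts for a single gene was 0.152 CPM in nonobese anti–PD-1 tumor 1. The sums were 2.15, 5.23 and 3.75 CPM in nonobese isotype tumors 1, 2 and 3, an order that 6 of the 10 members shared. In obese isotype tumors 1, 2 and 3 they were 1.64, 1.96 and 2.53 CPM, an order that 0 of the 10 members shared, and tumor 1, with the lowest sum, had the highest member mean (−0.30). Of the 9 markers tested, anti–PD-1 brought 8 above the thresholds in the obese mice and 1 below them in the nonobese mice. For diet under anti–PD-1 and for the difference between the responses, 9 of 9 were called higher, with median log2 values of 3.60 and 4.43. Of these markers, Cd3d, Cd3e and Cd3g had 9 counts or fewer in each tumor outside the obese anti–PD-1 group. Cd3d, Cd3e and Cd3g passed the filter on low counts only through that group, so the filter partly fixed these calls and medians. Outside that group the sum of all 10 markers was at most 5.23 CPM. Whether other markers also passed only through it was not checked. No conclusion is drawn from these calls and medians. The natural killer cell receptor gene Ncr1 was at 0 in all nonobese anti–PD-1 tumors. All 10 markers together summed to 2.72 CPM or less there, so this does not show that NK cells were absent. The part of T and NK cells in the members' levels was not tested.

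**Figure D5:**
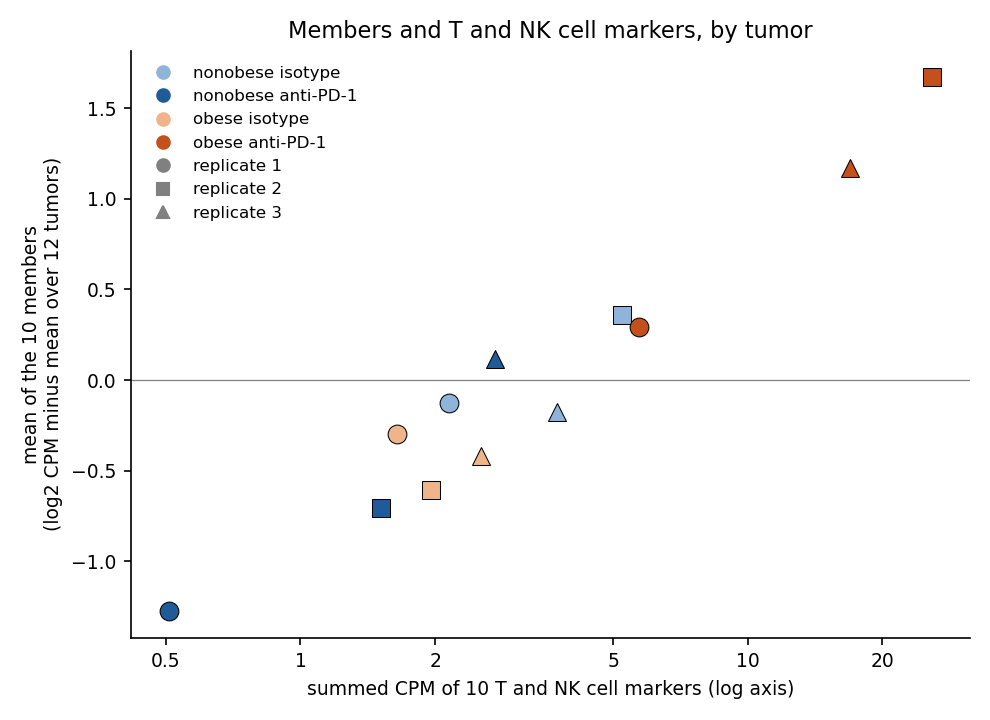
Mean centred log2 CPM of the 10 members (vertical axis) against the summed CPM of 10 T and NK cell markers (horizontal log axis) in the 12 tumors, colored by group with the replicate number as the symbol. Obese anti–PD-1 tumors 2 and 3 are at the upper right, at 1.67 and 1.17, and nonobese anti–PD-1 tumor 1 is at the lower left, at −1.27.

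Other cells in the samples also differed between groups. Melanoma markers (7 genes, Pmel among them) summed to between 24720 and 30283 CPM over all tumors and 0 of 7 were called in any comparison. Markers of macrophages (7 of 8 in the table) summed to 256 to 492 CPM in the obese anti–PD-1 group, 183 to 308 in the obese isotype group, 149.7 to 217 in the nonobese anti–PD-1 group and 222 to 483 in the nonobese isotype group. Dendritic cell markers (7 genes) were at 8.11 to 18.02, 7.76 to 9.21, 7.67 to 9.32 and 8.67 to 13.5 CPM in the same order. Fibroblast markers (6 genes) were at 412 to 1824, 194 to 1070, 261 to 527 and 581 to 2757 CPM, and adipocyte markers (5 genes) at 31.3 to 64.4, 15.1 to 22.0, 13.5 to 19.9 and 15.4 to 29.1 CPM. B cell markers (4 genes) stayed between 1.16 and 5.93 CPM, endothelial markers (5 genes) ranged from 71.1 to 151 CPM, and skeletal muscle markers (4 genes) ran from 6.25 to 422 CPM and overlapped among all 4 groups. Of 7 macrophage markers, 1 was called higher for treatment in obese mice and 3 lower for treatment in nonobese mice. For diet under anti–PD-1, 5 were called higher, and for the difference between the responses 7 were. Of 6 fibroblast markers, 0, 5, 3 and 5 were called in the same comparisons and directions, and of 5 adipocyte markers, 5, 2, 5 and 5. For treatment in obese mice, 1 of 2 B cell markers tested, 1 of 4 dendritic cell markers and 1 of 4 skeletal muscle markers were also called higher. The median log2 fold change there was 3.25 for T and NK cell markers, 3.01 for adipocyte markers, 2.33 for muscle markers and 1.44 for the members. The T and NK cell value includes Cd3d, Cd3e and Cd3g, which passed the filter only through the obese anti–PD-1 group. Whether other markers of that list did so too was not checked. Endothelial markers had 1 of 5 called lower for treatment in nonobese mice, 1 higher for diet under anti–PD-1 and 1 higher for the difference. Per tumor, the macrophage sums were 149.7, 179 and 217 CPM in nonobese anti–PD-1 tumors 1, 2 and 3, the order of the members. The endothelial, fibroblast and skeletal muscle sums ranked the same way. Dendritic cell and adipocyte sums were lowest in tumor 2 there, and B cell and melanoma sums were highest in tumor 1. In obese anti–PD-1 tumors 1, 2 and 3 the macrophage sums were 256, 488 and 492 CPM. The sums of macrophages, dendritic cells, fibroblasts, endothelium, skeletal muscle and B cells were all highest in tumor 3 and lowest in tumor 1. Adipocyte sums were 56.6, 31.3 and 64.4 CPM in the same tumors, lowest in tumor 2. Melanoma sums were highest in tumor 2 and lowest in tumor 3. Of the 10 members, 9 were highest in tumor 2 and lowest in tumor 1. None of these lists had a marker at 0 throughout a group, and their part in the members' levels was not tested.

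The genes whose profile over the 12 tumors was most like the mean of the members were picked by Pearson's r outside the members. In order, they were Prf1 (r = 0.99), Igtp (0.98), Gbp7 (0.98), Gbp6 (0.98), Tgtp2 (0.98), Ifi47 (0.97), Iigp1 (0.97), Irf8 (0.97), Gbp2 (0.97) and Il2rb (0.97). Prf1 encodes perforin, the pore-forming protein of cytotoxic lymphocytes, and Il2rb a receptor chain of T and NK cells. Igtp, Gbp2, Gbp6, Gbp7, Tgtp2, Ifi47 and Iigp1 encode GTPases that interferons induce, and Irf8 is an interferon-regulated transcription factor of myeloid cells. With the group means removed, r was between 0.91 and 0.98 for these 10. Prf1 itself was at a low level, with a mean of 0.937 CPM over the 12 tumors and a range from 0 to 5.90 CPM. Its r therefore rests partly on tumors with few or no counts, and its first place in the order is not a sign of a well-measured gene. Levels of the other genes named are not given here. Over 13085 other genes the median r was −0.05 and 75 genes (0.573%) were above 0.9. These are descriptions over 12 tumors that share groups and libraries, without a test.

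Reads of similar or overlapping genes limit a few values. Of all 100-base windows of the members' transcripts, the length of a read, 99.04% were found in no other gene for H2-K1, 96.4% for H2-D1 and 100% for B2m, Psmb10 and Nlrc5. Tapbp had the lowest share of the members, 85.2%, mostly through the overlapping Gm19412 on the opposite strand. Psmb8 had 92.0% through Gm20496, also opposite. Of the constitutive counterparts used in the ratios, Psmb5 had 77.8%, Psmb7 93.6% and Psmb6 100%. Tap1 and Psmb9 share 212 exon bases on opposite strands. The libraries were stranded, but whether the counting used strand is not given in the sources used here, so reads of these overlaps could not be assigned.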

How the data were processed

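RNA of 12 bulk tumors was measured, 3 in each of 4 groups named by the labels. Stranded poly(A) libraries were read from a single end over 100 bp by the authors, mapped with STAR 2.7.0f to mm10 and counted with HTSeq 0.9.1, and the authors deposited raw counts for 23420 genes, without normalization. The strand setting is not given in the sources used here. All 12 columns were matched by name to a tumor and 0 were left unused. The labels number the tumors, with 3 per group. P values of edgeR and DESeq2 rest on the spread between tumors within groups. That spread was estimated over all groups together, except where only some tumors were fitted.

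The members and all gene lists were chosen with earlier results of these data known. filterByExpr of edgeR 4.0.16 (R 4.3.3) kept 13095 genes, which were scaled by TMM and fitted with 4 group means by the quasi-likelihood F-test (earlier form of glmQLFit, no robust prior, 8 residual degrees of freedom). FDR values are Benjamini-Hochberg values over all genes tested, from edgeR unless DESeq2 1.42.0 is named. Called genes differed more than 2-fold with a P below 0.05 before adjustment. SE values were derived from the F statistic. A floor of 3 counts is between 0.0882 and 0.212 CPM per tumor and covers counting error only. With 3 against 3 tumors, a two-sided exact permutation test cannot go below 0.1.

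CPM per kb used the principal transcript of GENCODE M21 (GRCm38, the assembly of mm10). Named genes were all 10 members, up to 3 called genes per list, comparison and direction with the smallest P, Psmb5, Psmb6, Psmb7, Psme1, Psme2, Irf1 and Rfx5, and the 10 genes most like the members. A further regulator is not reported here and was left out of its list. Marker lists covered T and NK cells, B cells, macrophages, dendritic cells, endothelium, fibroblasts, adipocytes, skeletal muscle and melanoma. As alternatives, the fit was repeated with DESeq2, with RLE scaling, with other low-count filters, with the current glmQLFit, with a robust prior, with only the groups compared, the replicate number as a block and each tumor left out. Plasma, flow cytometry, qPCR and other tumor models were not analysed here.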

Additional observations from a re-analysis of the deposited data

Results flagged for a closer look

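The treatment response of all 10 members differed between obese and nonobese mice by the interaction test in edgeR, at unadjusted P values below 0.05, an upward rule met by 7.01% of all genes, and FDR values from 0.106 to 0.342. For the class I chains, the log2 difference between the responses, obese minus nonobese, was 1.31 for H2-K1, 1.21 for H2-D1 and 1.27 for B2m. It was 2.65 for Tap1, 2.12 for Tap2 and 1.53 for Tapbp, the genes of peptide transport and loading. The immunoproteasome subunits had differences of 3.56 (Psmb8), 3.34 (Psmb9) and 1.89 (Psmb10). Nlrc5, the transactivator, differed by 2.23 with the largest SE of the 10 (0.95) and an FDR of 0.342. Single outlying tumors were not tested in these groups of 3.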

How the results depend on the processing

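The direction of all 10 members was the same under every setting and every left-out tumor for anti–PD-1 in obese mice, for diet under anti–PD-1 and for the difference between the responses. Their median log2 fold changes with a tumor left out ranged from 1.19 to 1.75, from 1.17 to 1.90 and from 1.70 to 2.33. Members called higher then ranged from 5 to 10, from 6 to 10 and from 9 to 10. Over all genes, 187 to 555, 310 to 690 and 516 to 849 were called higher in those fits. Nlrc5 lost its call under DESeq2 and the robust prior for diet under anti–PD-1 (log2 1.49 and 1.5) and for the difference (2.24 and 2.23), and for diet also with only the groups compared (1.49). In nonobese mice, members called lower were 0 under DESeq2 and the robust prior, where Psmb8 was still more than 2-fold lower but P rose above 0.05. With a tumor left out they were 0 to 4, and the sign changed for H2-K1 (−0.26 to 0.11) and Nlrc5 (−1.84 to 0.26). Of all genes, 171 to 491 were called lower with a tumor left out. For diet under isotype, members called lower were 0 under DESeq2, the current glmQLFit and the robust prior, again with Psmb8 more than 2-fold lower and P above 0.05. With a tumor left out they were 0 to 1, and the sign changed for H2-D1 (−0.23 to 0.064) and B2m (−0.045 to 0.21). Of all genes, 53 to 366 were then called lower. Without a filter on low counts, 17519 genes were tested, and edgeR put 2 members (obese mice), 9 (diet under anti–PD-1) and 3 (difference) below an FDR of 0.05. Of all 17519 genes, 6, 104 and 55 were below it in the same comparisons, in either direction. With the replicate number as a block, the paired fit called 7 members in obese mice, 1 in nonobese mice, 0 for diet under isotype, 10 for diet under anti–PD-1 and 10 for the difference. Over all 13095 genes, it called 311 higher, 350 lower, 174 lower, 512 higher and 679 higher in the same order. Tumors with the same number come from different mice and had a mean correlation of deviations of 0.133 (−0.264 to 0.563 over 18 pairs), against −0.062 (−0.555 to 0.447 over 36 pairs) for different numbers. Not every pair was over 0.1, so the numbers were not taken to pair them. Depth limits Psmb9 most, the member with the lowest mean CPM in each group, in libraries of down to 14022929 counts.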
